A study of Mus musculus with 12 samples.

Results

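The cytosolic ribosomal protein genes of injured mouse muscle were described over 12 arrays. They were taken as genes with a transcript cluster (a set of array probes for 1 gene) whose only symbol was Rpl or Rps followed by a digit, or was Rplp0, Rplp1, Rplp2 or Rpsa, without the Rps6k kinases and pseudogenes. This gave 63 of the 19752 genes tested. Of these, 54 encode core subunits of the ribosome, namely 30 of the large subunit, 21 of the small subunit and the 3 proteins of the stalk. The other 9 were paralogs or further genes that met the symbol rule: Rpl3l, Rpl7l1, Rpl10l, Rpl32l, Rpl39l, Rps4l, Rps27l, Rps19bp1 and Rps23rg1. A further 20 ribosomal protein symbols, among them Rpl3, Rpl32, Rps23, Rps24 and Rps27, occurred only on clusters with several symbols and were not analysed here.

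The tissue was the whole tibialis anterior (TA), a shin muscle, from C57BL/6 mice aged 8 weeks, injured with cardiotoxin at day 0. Every mouse, controls included, received diphtheria toxin every other day. Foxp3-DTR+ mice carry a diphtheria toxin receptor on cells that express Foxp3, so that the toxin removes regulatory T (Treg) cells, and Foxp3-DTR- mice lack it. Amphiregulin (AREG), a ligand of the epidermal growth factor receptor, or the vehicle PBS was injected into the muscle at day 0 and then into the peritoneum every other day. The 4 groups of 3 arrays were Foxp3-DTR- with PBS at day 4, Foxp3-DTR- with AREG at day 4, Foxp3-DTR+ with PBS at day 8 and Foxp3-DTR+ with AREG at day 8. Day and genotype therefore changed together and cannot be told apart. Whether the arrays came from separate animals is not in the labels, so the p-values measure only the spread between these arrays, which may be partly technical.

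Each cytosolic ribosome has a small subunit, which holds the mRNA and decodes it, and a large subunit, which joins the amino acids. Ribosomal proteins are made in step with ribosomal RNA, and in most cells their mRNAs are among the most abundant. Many of these mRNAs start with a C and a run of pyrimidines, the 5′ terminal oligopyrimidine (TOP) motif, through which the mTOR kinase and the protein Larp1 control their translation and stability. In muscle, Rpl3l replaces Rpl3 in the ribosomes of mature fibres. Growth and cell division require new ribosomes, whereas resting fibres turn them over slowly.

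At day 4 the core ribosomal protein genes had lower mean levels with AREG than with PBS. The log2 change (AREG minus PBS) was below 0 for 54 of 54 core genes and 60 of 63 members, against 40.9% of all genes tested. With each array centred on its median the core count was 53 of 54, as Rpl29 lay at the boundary. The median change was -0.32 over the core genes, with a range from -0.59 to -0.003, and 0.04 over all genes. The threshold for a call was an adjusted p under 0.05 over the whole table (limma, Benjamini-Hochberg). At this threshold 1 member fell (Rps19), against 2.11% of all genes, and 1 rose (Rpl3l), against 0.79%, while 2.9% of all genes passed in either direction. At an unadjusted p under 0.05, 30 members were lower, against 9.73% of all genes, and 1 was higher, against 7.3%. The AREG arrays lay below all PBS arrays for 31 of 63 members, of which 29 were core genes, against 12% of all genes. The opposite separation was seen for 1 member, against 10.2% of all genes. In whole tissue, fewer cells of a type and less RNA per cell cannot be told apart.

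**Figure D1:**
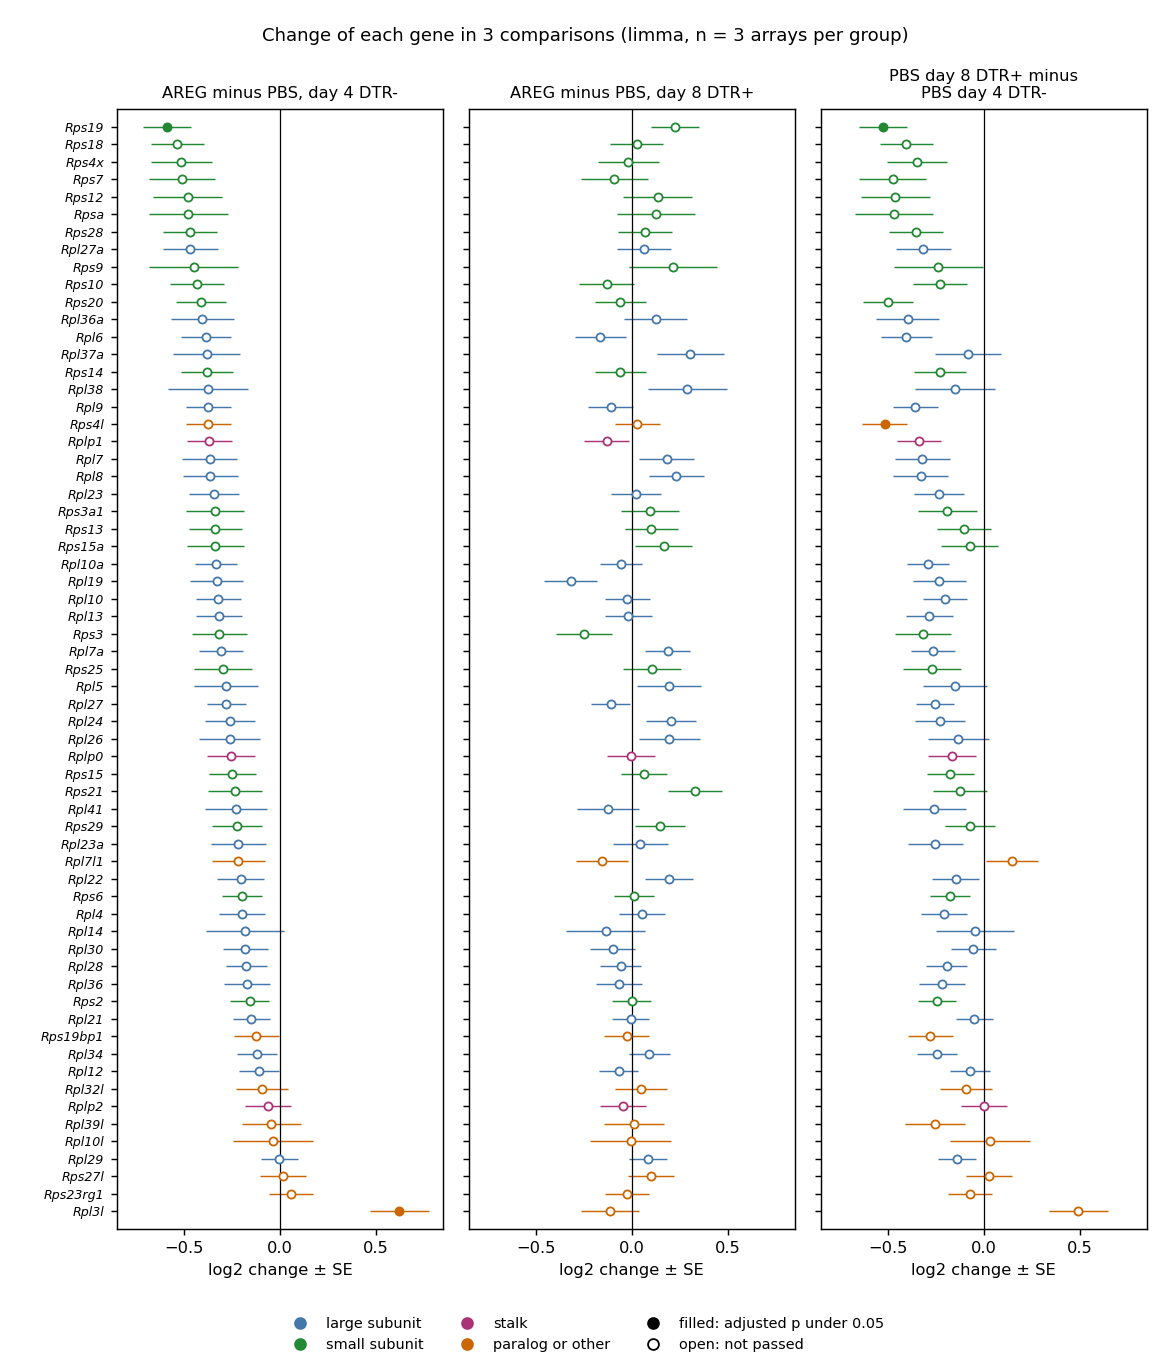
Log2 change of each of the 63 genes (points, coloured by subunit) with its standard error (bars) in 3 comparisons, sorted by the change at day 4; filled points passed the threshold. At day 4 and between the PBS groups nearly all points lie left of 0, whereas at day 8 they lie on both sides with none filled.

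The levels on single arrays show how the groups lay. The median log2 intensity of the 54 core genes was 10.99, 11.07 and 10.79 on the PBS arrays of day 4 (mean 10.95 ± 0.15, SD, n = 3) and 10.38, 10.73 and 10.63 on the AREG arrays (10.58 ± 0.18). These groups did not overlap, although AREG replicate 2 and PBS replicate 3 differed by little. At day 8 the medians were 10.59, 10.69 and 10.60 with PBS (10.63 ± 0.05) and 10.90, 10.73 and 10.55 with AREG (10.73 ± 0.17), which overlapped. Counted gene by gene, 2, 1 and 12 of the 54 core genes were below their own mean over the 12 arrays on the PBS arrays of day 4. On the AREG arrays of day 4 the counts were 48, 19 and 49, so replicate 2 stood apart from the other AREG arrays of that day. At day 8 they were 40, 32 and 34 with PBS and 18, 23 and 51 with AREG.

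**Figure D2:**
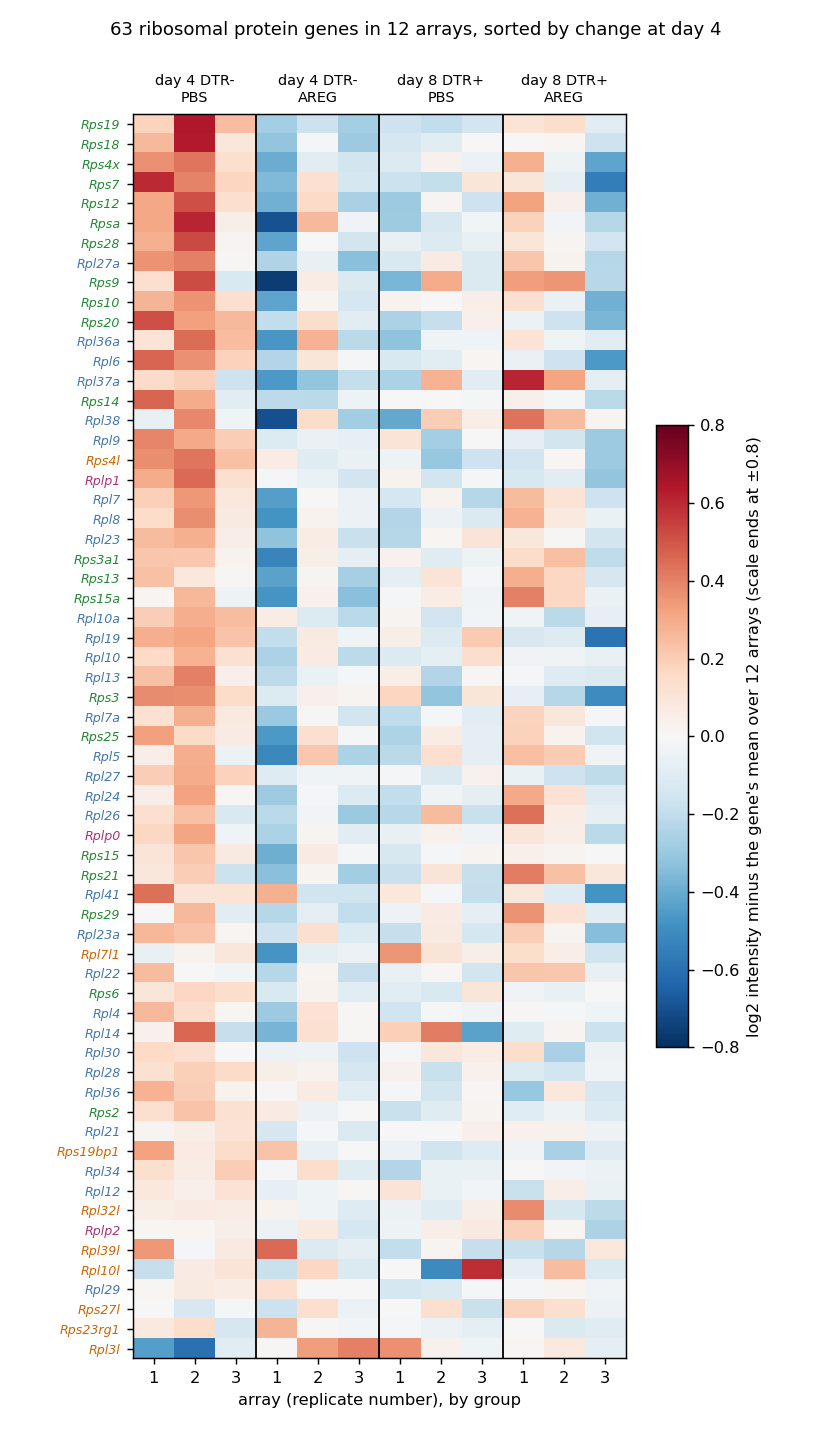
Log2 intensity of the 63 genes (lines, sorted by the change at day 4) on the 12 arrays (columns, by group and replicate number), minus each gene's mean over the arrays; red is higher and blue lower, and the colour scale ends at ±0.8. The PBS arrays of day 4 are mostly red, AREG replicates 1 and 3 of day 4 mostly blue, and Rpl3l at the foot runs the other way.

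The signal of the members was mostly high. Of the 54 core genes, 40 lay in the top 5% of signal among the genes tested. The 946 other genes in that top 5% had a median change of 0.14 at day 4, and 315 of them were lower. Probes of different genes respond differently, so these signals do not rank the amounts of RNA. The 3 members with the brightest probes were Rps6, Rpl21 and Rpl10, with mean log2 intensities of 13.05, 13.00 and 12.80. The 3 dimmest were Rpl39l at 4.63, Rpl12 at 6.58 and Rps23rg1 at 6.94, all under the median of 7.15 over all genes, as was Rpl10l at 7.14.

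**Figure D3:**
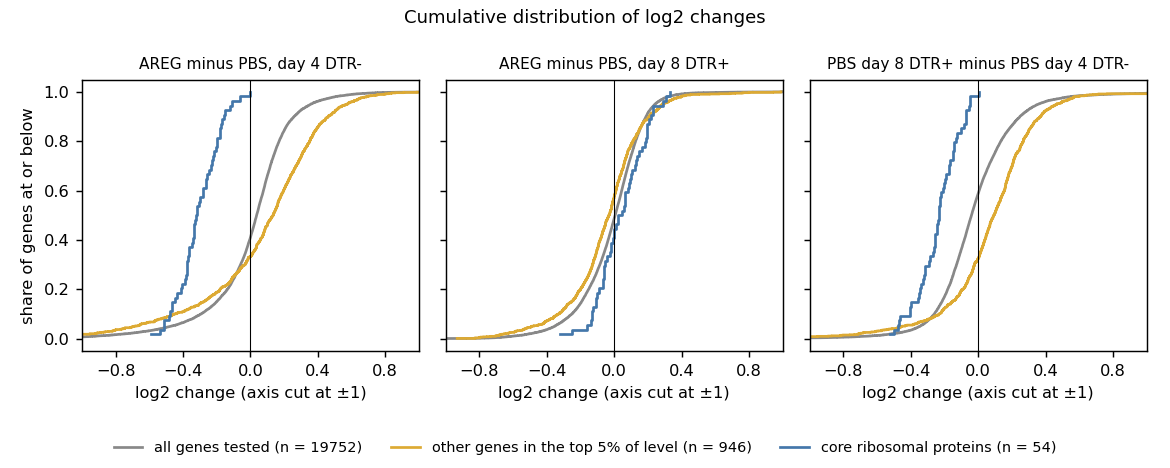
Cumulative share of genes at or below each log2 change for all 19752 genes tested, the 946 other genes in the top 5% of signal and the 54 core ribosomal protein genes, in 3 comparisons (x axis cut at ±1). The core curve lies to the left of the other curves at day 4 and between the PBS groups over most of its course, and close to them for AREG at day 8.

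Members of the small subunit had the larger median change at day 4. Their median was -0.38, against -0.28 in the large subunit and -0.26 in the stalk. Of the 12 core genes with a change of -0.4 or lower, 10 belonged to the small subunit. Separation of the groups did not follow this order. The AREG arrays lay below all PBS arrays for 11 of 21 small subunit genes and 17 of 30 large subunit genes, against 12% of all genes. No test of the difference between the subunits was made.

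Rps19, a small subunit protein needed to mature the RNA of that subunit and mutated in Diamond-Blackfan anaemia, was the core gene that passed the test. Its log2 intensity was 9.34, 9.80 and 9.41 on the PBS arrays of day 4, and 8.89, 8.99 and 8.89 on the AREG arrays. All AREG arrays lay below all PBS arrays. Rps19 fell by 0.59 ± 0.13 on the log2 scale (SE, adjusted p = 0.0297, limma), which is 1.51-fold lower. The call was lost without AREG replicate 1 (adjusted p = 0.0705), AREG replicate 3 (0.107) or PBS replicate 2 (0.198) of day 4, with changes of -0.58, -0.57 and -0.45.

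Rps18, a protein of the small subunit's head, had values of 11.38, 11.75 and 11.21 with PBS and 10.80, 11.11 and 10.82 with AREG at day 4. These groups did not overlap either, and its change of -0.54 ± 0.14 just missed the threshold (adjusted p = 0.0513, limma). Rps28, which lies near the mRNA exit, measured 10.72, 10.96 and 10.46 with PBS and 10.02, 10.44 and 10.29 with AREG, a change of -0.47 ± 0.14 (adjusted p = 0.0885, limma). The lowest PBS array and the highest AREG array of Rps28 were nearly equal. With the replicate number as a block, Rps19 (adjusted p = 0.0198, limma), Rps18 (0.0242) and the large subunit gene Rpl27a (0.048) passed as lower. That makes 3 members in place of 1, among 609 genes lower in all in place of 417. Deviations from the group means correlated between arrays of like number at day 4 for numbers 1 and 3, but not clearly for number 2. These correlations depend on each other and do not settle a pairing. With the block 4.63% of all genes passed in either direction.

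Other small subunit genes were lower with AREG by a like amount and did not pass. Rps4x, the small subunit gene on the X chromosome, differed by -0.51 ± 0.16 (adjusted p = 0.0918, limma), with 10.83, 10.90 and 10.60 on the PBS arrays and 10.08, 10.39 and 10.33 on the AREG arrays. Rps7 measured 11.40, 11.20 and 10.98 with PBS and 10.45, 10.93 and 10.67 with AREG, a difference of -0.51 ± 0.17 (adjusted p = 0.126, limma). Both pairs of groups were separate. Rps20 had 12.34, 12.15 and 12.09 with PBS and 11.63, 11.96 and 11.74 with AREG, again without overlap, and a difference of -0.41 ± 0.13 (adjusted p = 0.102, limma). Rps10 differed by -0.43 ± 0.14 (adjusted p = 0.114, limma). Rpsa, the laminin receptor precursor that is also a small subunit protein, shows how much 1 array can weigh. Its AREG arrays read 9.73, 10.69 and 10.40 and its PBS arrays 10.73, 11.04 and 10.47, so the groups overlapped (difference -0.48 ± 0.21, adjusted p = 0.241, limma). Rps6, the substrate of the S6 kinases, was among the least spread. It had 13.14, 13.21 and 13.19 with PBS and 12.92, 13.07 and 12.96 with AREG, a difference of -0.20 ± 0.10 without overlap (adjusted p = 0.366, limma).

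In the large subunit all 30 core genes had lower means with AREG at day 4, and none passed. Rpl27a came nearest, with 11.20, 11.25 and 10.86 on the PBS arrays, 10.61, 10.79 and 10.51 on the AREG arrays and a difference of -0.47 ± 0.14 (adjusted p = 0.0896, limma). Rpl9 had the tightest AREG arrays of these, at 11.54, 11.60 and 11.58, against 12.04, 11.95 and 11.85 with PBS, a difference of -0.37 ± 0.12 (adjusted p = 0.101, limma). Both were separate between the groups. Rpl5, which with Rpl11 binds Mdm2 when it is not in ribosomes, overlapped, at 11.24, 11.48 and 11.15 with PBS and 10.68, 11.41 and 10.94 with AREG. Rpl29, a small basic protein also known for binding heparin, had the smallest difference of the core genes, at -0.003 ± 0.10. Its arrays read 10.48, 10.53 and 10.52 with PBS and 10.59, 10.46 and 10.46 with AREG.

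The stalk recruits the elongation factors to the ribosome. Rplp0, its base, measured 12.80, 12.95 and 12.60 with PBS and 12.38, 12.65 and 12.55 with AREG at day 4, which overlapped (difference -0.26 ± 0.13, adjusted p = 0.321, limma). Rplp1 had 12.75, 12.90 and 12.57 against 12.43, 12.39 and 12.30, separate groups with a difference of -0.37 ± 0.12 (adjusted p = 0.102, limma). Rplp2, its partner on the stalk, was flat on this array, at 7.90, 7.90 and 7.93 against 7.84, 7.96 and 7.74 (difference -0.06 ± 0.12, adjusted p = 0.876, limma). The SD of its 4 group means, 0.03, was among the 3 smallest of the members with Rpl10l and Rpl32l. The 3 largest belonged to Rpl3l, Rps19 and Rps7, at 0.27, 0.27 and 0.26.

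Rpl3l, the paralog of Rpl3 found in striated muscle fibres, ran against the core genes. On the arrays of day 4 it read 9.96, 9.81 and 10.31 with PBS and 10.41, 10.74 and 10.80 with AREG. All AREG arrays lay above all PBS arrays, with AREG replicate 1 close to PBS replicate 3. Rpl3l rose by 0.62 ± 0.15 on the log2 scale (adjusted p = 0.0424, limma), which is 1.54-fold. Its call was lost without AREG replicate 1 (adjusted p = 0.0654), 2 (0.109) or 3 (0.165), without PBS replicate 1 (0.111) or 2 (0.257) of day 4, without AREG replicate 2 (0.0606) or PBS replicate 2 (0.0563) of day 8, and with a pseudocount of 32 (0.0523). Its change lay between 0.51 and 0.83 in all alternatives. Of the genes of mature fast fibres, 20 of 20 were higher with AREG at day 4, with a median change of 0.18. Among the 946 other genes in the top 5% of signal 631 were higher, with a median of 0.14, so the size of the fibre change is not particular to fibre genes. Of the 20, 1 passed (0.79% over all genes). Their summed intensity ranged from 168300 to 184200 with PBS and from 185600 to 200800 with AREG, and none was under the median level of all genes. Their part in the result for Rpl3l was not tested.

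The other paralogs differed less. Rps4l, a relative of Rps4x, measured 7.59, 7.64 and 7.45 with PBS and 7.28, 7.12 and 7.16 with AREG, without overlap, a difference of -0.37 ± 0.12 (adjusted p = 0.0981, limma). Its other cluster, of nearly the same signal (7.17 against 7.22), differed by -0.11 at day 4. Rps27l, a p53-inducible relative of Rps27, stayed between 10.94 and 11.24 on all arrays of day 4, with a difference of 0.02 ± 0.12 whose sign turned when quantile normalisation was repeated and without AREG or PBS replicate 2 of day 4. Rpl7l1, a relative of Rpl7, differed by -0.22 ± 0.14 (adjusted p = 0.496, limma), beside -0.37 for Rpl7. Rps19bp1, a nucleolar protein that binds Rps19 and is not a subunit, differed by -0.12 ± 0.12. Rpl10l and Rpl39l, paralogs used in male germ cells, and Rpl32l differed by -0.04, -0.04 and -0.09. For Rps23rg1, derived from an Rps23 transcript, the difference was 0.06 ± 0.12, and its sign turned with array quality weights, without AREG replicate 1 or PBS replicate 3 of day 4 and without both arrays numbered 1.

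**Figure D4:**
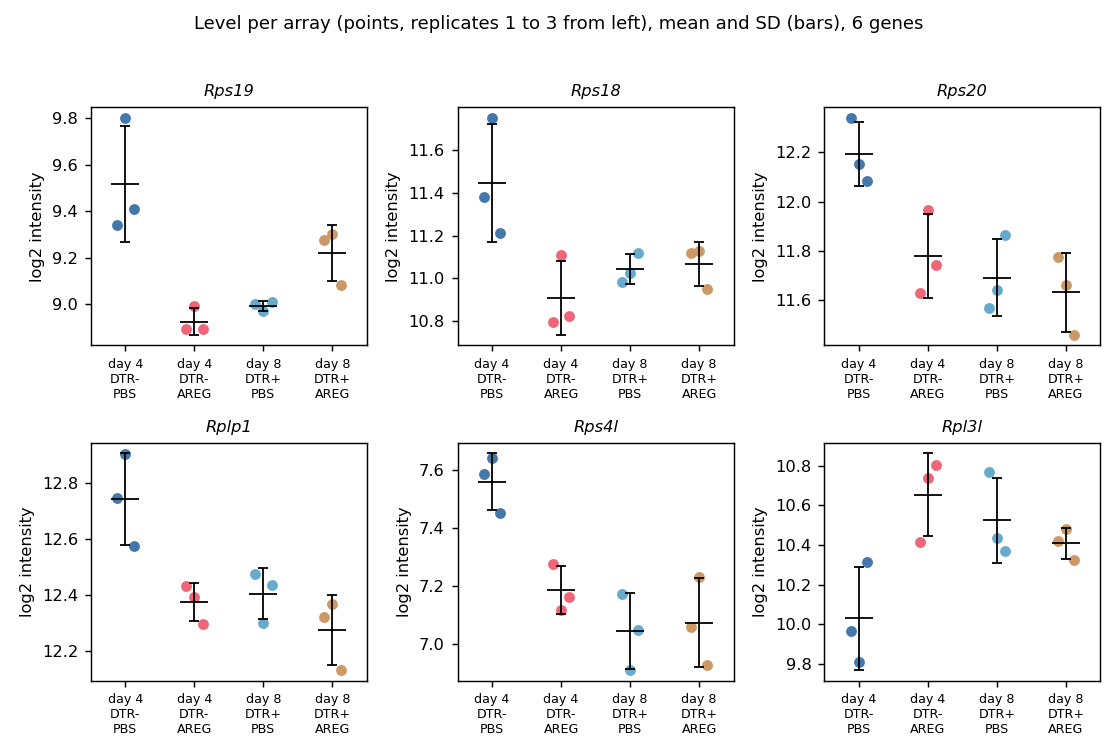
Log2 intensity on each array (points, replicates 1 to 3 from the left) with the mean and SD (bars) of 6 genes in the 4 groups; y axes do not start at 0 and differ between panels. Rps19, Rps18, Rps20, Rplp1 and Rps4l are highest in the PBS group of day 4, and Rpl3l is lowest there.

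Ribosomal protein genes have many processed copies in the genome, and array probes can read them too. The 63 genes had 207 clusters, of which the brightest of each gene was used; 38 genes had several clusters (up to 11, for Rpl23a) and 25 had 1. At day 4, 204 of 207 clusters were lower with AREG, with a median of -0.32. All 144 clusters not used were lower, and in 38 of 38 genes with several clusters the clusters had the same sign. Which copy a cluster read cannot be settled from these values, so clusters are not independent measurements. The median change was -0.34 over the genes with several clusters and -0.18 over those with 1, among which 22 of 25 were lower. The genes with 1 cluster include all paralogs and other rule hits except Rps4l, so the sets also differ in class. Over these paralogs and rule hits, Rps4l included, the median was -0.04. The genes with 1 cluster that were not lower were Rpl3l, Rps27l and Rps23rg1. Rps19, Rps20 and Rpl3l had 1 cluster each, whereas Rps18 had 7, Rpl27a 9 and Rps6 8.

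Since the core genes lay on the same side at day 4, the sequences at their annotated starts are shown, from RefSeq on GRCm38.p6. Promoters were given for 51 of 63 members, with 50 promoters of 43 core genes. Each line below runs from 10 bases before the start to the 20th base of the transcript, 5′ to 3′ on the gene's strand. Capitals mark the longest pyrimidine run with a C that reaches within 10 bases of the start, where it has at least 5 bases.
Rps6, chr4:86857348-86857377, minus strand: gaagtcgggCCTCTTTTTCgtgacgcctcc
Rps18, chr17:33955646-33955675, minus strand: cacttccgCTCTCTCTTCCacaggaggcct
Rps10, chr17:27635225-27635254, minus strand: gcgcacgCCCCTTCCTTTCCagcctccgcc
Rpl28, chr7:4792955-4792984, plus strand: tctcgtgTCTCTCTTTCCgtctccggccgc
Rpl27a, chr7:109519185-109519214, plus strand: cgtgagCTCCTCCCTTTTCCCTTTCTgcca
Rps19, the first of 3 annotated starts, chr7:24884582-24884611, plus strand: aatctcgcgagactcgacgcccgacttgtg
Rpl3l, the first annotated start, chr17:24727816-24727845, plus strand: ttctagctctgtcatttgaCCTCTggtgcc

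Rps6, Rps18, Rps10, Rpl28 and Rpl27a have a pyrimidine run lying across the annotated start, while the annotated first start of Rps19 and that of Rpl3l do not. The base at the start is a C in Rps6, Rps18, Rps10 and Rpl28, as in the TOP motif, and a T in Rpl27a. These genes were picked by name for display, so the shares that follow, not these lines, describe the core promoters. A run of at least 8 bases was found in 36.0% of core promoters (18 of 50), against 13.6% of the promoters of genes tested. A C at the annotated start with 4 pyrimidines behind it stood in 18.0% of core promoters (9 of 50), against 2.3%. For promoters of mitochondrial ribosomal proteins that share was 0.0%, for ribosome biogenesis 1.2% and for elongation and initiation factors 5.0%. An annotated start can lie some bases off the start in use in muscle, which this count would miss. The median change at day 4 was -0.32 over 17 core genes with a run of at least 8 and -0.33 over 26 with a shorter one. It was -0.24 over the 9 core genes with a C and 4 pyrimidines at the start and -0.33 over the 34 without. These differences were not tested.

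Around the start, the letters CCGGAA, the core bound by ETS factors such as GABP, were searched on both strands, as were GGGCGG (the GC box of Sp1), TATAAA (the TATA box) and CANNTG (the E-box of MYOD and MYC, which reads the same on both strands). In windows of 300 bases, from 250 before the start to 50 after it, CCGGAA stood in 48.0% of core promoters against 19.6% of promoters of genes tested, but also in 56.8% of those of mitochondrial ribosomal proteins and 45.3% of those of ribosome biogenesis. GGGCGG stood in 60.0% against 49.4%, TATAAA in 10% against 11.5% and CANNTG in 54.0% against 68.2%. Rps18 and Rpl3l, which lay on opposite sides at day 4, are shown with the 250 bases before the start. In Rps18 capitals mark CCGGAA and its reverse TTCCGG, and in Rpl3l they mark CANNTG. A match is a description of letters, not of a bound site.
Rps18, chr17:33955666-33955915, minus strand: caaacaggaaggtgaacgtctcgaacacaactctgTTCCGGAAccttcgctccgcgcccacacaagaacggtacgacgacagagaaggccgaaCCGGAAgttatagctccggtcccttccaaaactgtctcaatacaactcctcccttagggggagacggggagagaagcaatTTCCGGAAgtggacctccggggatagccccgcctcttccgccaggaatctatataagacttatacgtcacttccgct
Rpl3l, chr17:24727576-24727825, plus strand: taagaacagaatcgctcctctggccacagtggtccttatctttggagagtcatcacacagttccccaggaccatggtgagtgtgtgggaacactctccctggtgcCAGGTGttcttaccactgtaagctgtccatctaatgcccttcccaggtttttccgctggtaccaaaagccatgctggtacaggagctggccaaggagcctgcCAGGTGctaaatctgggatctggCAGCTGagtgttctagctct

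Rps18 held 5 matches to CCGGAA, overlapping ones included. This was the most of the 60 member promoters, of which 27 held any, so Rps18 is not typical of the members. The share of all promoters with as many was not counted. Rpl3l held 3 CANNTG matches before the first of its 2 annotated starts, a number reached by 9.6% of promoters of genes tested and by 0 of 50 core promoters, and 1 before the other start.

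At day 8, in Foxp3-DTR+ muscle, the ribosomal protein genes lay on both sides of 0. Of the 54 core genes 23 were lower and 31 higher with AREG, with a median change of 0.03, against 0.01 over all genes. In the limma fit 0 of 63 members passed, against 0.00506% of all genes, and 0 passed with array quality weights, with which 6.03% of all genes did. At an unadjusted p under 0.05, 1 member was higher, against 2.05% of all genes, and 1 lower, against 5.57%. These were Rps21, with 9.16, 9.44 and 9.15 on PBS arrays and 9.75, 9.57 and 9.43 on AREG arrays (difference 0.33 ± 0.14, adjusted p = 0.644, limma), and Rpl19, with 12.18, 12.02 and 12.34 against 12.01, 12.04 and 11.55 (-0.32 ± 0.14, adjusted p = 0.644, limma). Both overlapped between the groups. Next in order of p were Rps19 and Rpl37a among the higher members, with differences of 0.23 and 0.31, and Rps3 and Rpl6 among the lower, with -0.25 and -0.16 (adjusted p = 0.73 and 0.794, limma).

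Groups without overlap at day 8 were found for 2 members, both higher with AREG, against 7.06% of all genes, and for 0 members lower, against 7.14%. These were Rpl34 and Rps19. Rps19 read 9.0, 8.97 and 9.01 with PBS and 9.27, 9.30 and 9.08 with AREG, a difference of 0.23 (adjusted p = 0.71, limma) opposite in sign to that of day 4. Rpl34 read 9.92, 10.09 and 10.10 against 10.15, 10.13 and 10.10. Rpl3l, at 10.77, 10.44 and 10.37 with PBS and 10.42, 10.48 and 10.33 with AREG, overlapped. The AREG arrays of day 8 spread widely for many members. Rpl37a, which holds a zinc finger of the large subunit, read 11.57, 11.28 and 10.88 there, and Rps4x 10.76, 10.43 and 10.05, with replicate 3 lowest in both.

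The difference of the AREG effects (day 8 minus day 4) was above 0 for 54 of 54 core genes, with a median of 0.34, against -0.01 over all genes. In the limma fit it passed for 0 of 63 members, as for 0% of all genes. At an unadjusted p under 0.05, 18 members were above 0, against 1.78% of all genes, and Rpl3l was below, against 4.1%. The smallest p among the members belonged to Rps19 (0.82, adjusted p = 0.548, limma), Rpl3l (-0.74, adjusted p = 0.62, limma) and Rpl7a (0.49, adjusted p = 0.672, limma). Rpl8, a protein close to the peptidyl transferase centre, followed with 0.60 (adjusted p = 0.693, limma). With array quality weights 25 members passed above 0 and 1 below, among 865 genes above and 1367 below in all (11.3% of those tested). Since the effect of day 4 and this difference share arrays, they are not separate evidence.

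The PBS groups differ by day and genotype together, and share the PBS arrays of day 4 with the comparison above, so both are given side by side and no agreement is read from them. In PBS arrays of day 8 Foxp3-DTR+ muscle, 53 of 54 core genes and 58 of 63 members had lower means than in those of day 4 Foxp3-DTR- muscle, against 58.7% of all genes. The core median was -0.23, against -0.04 over all genes and 0.09 over the 946 other genes in the top 5% of signal. In the limma fit 2 members passed, both lower, against 2.34% of all genes. At an unadjusted p under 0.05, 24 members were lower, against 6.89% of all genes, and 1 was higher, against 6.2%. Groups did not overlap for 33 members lower, 30 of them core genes, against 14.2% of all genes, and for 1 higher, against 9.17%.

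The members that passed between the PBS groups were Rps4l and Rps19. Rps4l read 7.17, 6.91 and 7.05 at day 8, against 7.59, 7.64 and 7.45 at day 4, and fell by 0.52 ± 0.12 (adjusted p = 0.0287, limma), while its other cluster differed by -0.39. Rps19 read 9.0, 8.97 and 9.01 against 9.34, 9.80 and 9.41, and fell by 0.52 ± 0.13 (adjusted p = 0.0393, limma). Neither passed without PBS replicate 2 of day 4 (adjusted p = 0.173 for Rps4l and 0.258 for Rps19), PBS replicate 2 of day 8 (0.14 and 0.132) or PBS replicate 3 of day 8 (0.103 and 0.117). Rps4l also failed without PBS replicate 1 of day 4 (0.102), and Rps19 without PBS replicate 3 of day 4 (0.052), PBS replicate 1 of day 8 (0.123) or AREG replicate 2 (0.0518) or 3 (0.0576) of day 4 or 2 of day 8 (0.059). Rps20, at 11.57, 11.64 and 11.87 against 12.34, 12.15 and 12.09, came next, with -0.50 ± 0.13 (adjusted p = 0.0632, limma). Rpl3l was the member that was higher without overlap, at 10.77, 10.44 and 10.37 against 9.96, 9.81 and 10.31 (0.49 ± 0.15, adjusted p = 0.127, limma). Rpl7l1 and Rps27l had higher means as well, by 0.15 and 0.03, and the sign of Rps27l turned when quantile normalisation was repeated and without PBS replicate 2 of either day.

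Genes that serve the ribosome elsewhere in the pathway did not all lie on one side as the core genes did. Lower with AREG at day 4 were 64.7% of ribosome biogenesis genes and 58.1% of elongation and initiation factors, against 40.9% of all genes. For mitochondrial ribosomal proteins the share was 32.5%. Of 77 mitochondrial ribosomal proteins, which build the organelle's own ribosome, 52 were higher and 25 lower with AREG at day 4, with a median of 0.06 and 0 called (background 2.9%, as above). At day 8 their median was -0.01 and between the PBS groups 0.09, with 0 called in each. Among 85 ribosome biogenesis genes 55 were lower at day 4, with a median of -0.04, and 0 passed in any comparison. The medians were 0.04 at day 8 and 0.0002 between the PBS groups. Npm1, a nucleolar chaperone, read 9.41, 9.47 and 9.36 with PBS and 8.09, 9.21 and 9.13 with AREG at day 4, where replicate 1 is far below the rest (-0.60 ± 0.22, adjusted p = 0.15, limma).

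Among 43 elongation and initiation factors 25 were lower at day 4, with a median of -0.03, and 3 fell, against 2.11% of all genes. Eif4a1, the helicase of the cap-binding complex, read 11.44, 11.54 and 11.52 with PBS and 10.94, 11.02 and 10.91 with AREG, tight and separate groups, and fell by 0.54 ± 0.10 (adjusted p = 0.0198, limma). Eef1b2, the exchange factor of the elongation factor that delivers tRNA, fell by 0.75 ± 0.16 (adjusted p = 0.0315, limma), from 11.02, 11.20 and 10.71 to 9.90, 10.52 and 10.26. Eef1a1, that elongation factor in most cells, fell by 0.70 ± 0.17 (adjusted p = 0.0447, limma), from 13.16, 13.27 and 12.79 to 12.16, 12.60 and 12.36. The mRNAs of the elongation factors Eef1a1 and Eef1b2 are known to carry TOP motifs, as many of those of ribosomal proteins do. A part of this motif in their falls was not tested. At day 8 and between the PBS groups 0 factors passed, with medians of -0.03 and 0.03.

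Of 41 genes of translation control 26 were higher at day 4, with a median of 0.06, and 1 rose, against 0.79% of all genes. The 1 that rose was Rragd, a Rag GTPase that brings mTOR complex to the lysosome, from 9.98, 9.86 and 10.42 with PBS to 10.65, 10.80 and 10.88 with AREG (0.69 ± 0.14, adjusted p = 0.0293, limma). The medians were 0.02 at day 8 and 0.05 between the PBS groups, with 0 called. Of 7 genes measured from the p53 response list, which free ribosomal proteins can raise through Mdm2, 0 passed, with medians of 0.13 at day 4, 0.03 at day 8 and 0.15 between the PBS groups. Fau, a small subunit protein made as a fusion with a ubiquitin-like part and not covered by the symbol rule, differed by -0.22 ± 0.12 at day 4 (adjusted p = 0.392, limma).

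**Figure D5:**
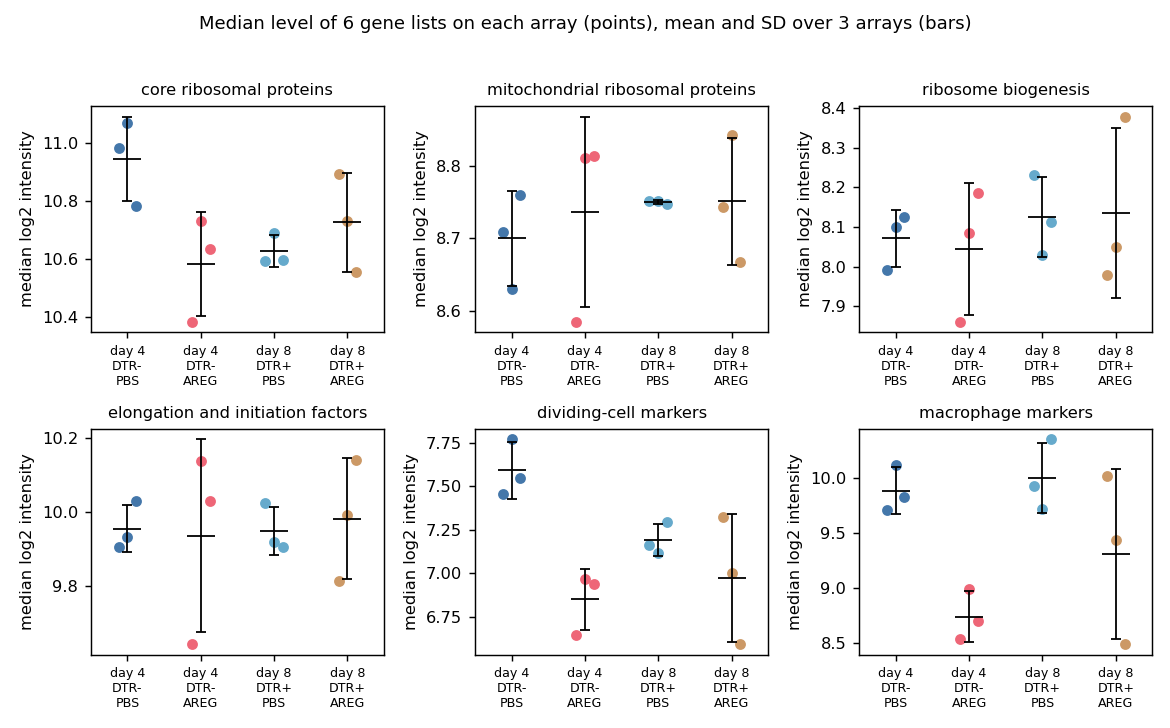
Median log2 intensity of 6 gene lists on each array (points) with the mean and SD over 3 arrays (bars) in the 4 groups; y axes differ between panels and do not start at 0. The core ribosomal proteins have their highest group mean with PBS at day 4, though AREG replicate 1 of day 8 lies above PBS replicate 3 of day 4. The mitochondrial ones show no such order, and the dividing-cell and macrophage markers are lower with AREG at day 4.

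Markers of several cell types moved with the core genes at day 4. Of 19 macrophage markers 18 were lower with AREG, with a median of -1.06, and 12 fell, against 2.11% of all genes. Their summed intensity was 21570 to 27500 with PBS and 10020 to 12930 with AREG. Of 20 markers of dividing cells 20 were lower, with a median of -0.77, and 12 fell, with sums of 4146 to 5370 against 2439 to 3153. Of 14 markers of myoblasts and new fibres 13 were lower, with a median of -1.04, and 6 fell, with sums of 31960 to 41620 against 23580 to 28140. Of 12 fibroblast markers 11 were lower, with a median of -0.42, and 0 passed. Higher with AREG were 8 of 8 adipocyte markers, with a median of 0.61 and 2 calls, and 10 of 10 endothelial markers, with a median of 0.32 and 0 calls. Over all genes 0.79% passed as higher.

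At day 8 the medians of the same lists were -0.58 for macrophages, -0.22 for dividing cells, -0.32 for myoblasts and new fibres and -0.58 for fibroblasts, with 0 calls in each. Only 1 of 19752 genes passed there (0.00506%), so the lack of calls sets no list apart. Macrophage sums there were 20050 to 28700 with PBS and 8663 to 24060 with AREG. Between the PBS groups, the myoblast list had a median of -1.04 with 7 falls, dividing cells -0.37 with 2 falls and macrophages -0.04 with 0 calls. Over all genes 1.15% passed as lower between these groups and 1.19% as higher. T cell markers had a median of 0.99 between the PBS groups with 9 rises, against 0.04 with 0 calls for AREG at day 4. Their sums were 1079 to 1130 with PBS and 1115 to 1295 with AREG at day 4, and 2027 to 3042 with PBS and 1450 to 2391 with AREG at day 8. The macrophage markers Cd163 and Aif1 and the Treg marker Foxp3 were under the median level of all genes in each group, and Foxp3 stayed between 6.49 and 6.75 on the 12 arrays, so it gives no check of Treg depletion. All 6 B cell markers measured were under that level as well, as were 9 or 10 of 10 neutrophil markers in each group, with medians of 0.02 and -0.10 at day 4. Of the red cell list 2 of 7 genes were measured, with a median of 0.12 at day 4. The part of these cell types in the results for the ribosomal protein genes was not tested.

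The arrays had median intensities from 134 to 143. The interquartile range of log2 intensity was narrowest on the day 4 arrays numbered 1, at 2.27 with PBS and 2.07 with AREG, against 2.39 to 2.61 on the other 10. Without both of these arrays, a setting chosen after seeing the data, 54 of 54 core genes were still lower at day 4, with a median of -0.23, and 0 of all 19752 genes passed in that comparison. With each array centred on its own median the core median at day 4 was -0.30, and Rps19 and Rpl3l passed.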

How the data were processed

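Whole TA muscle RNA was hybridised to 12 Affymetrix Mouse Gene 1.0 ST arrays, per the labels. The authors deposited intensity values on a linear scale (4.65 to 21512), made with Affymetrix Power Tools and RMA, per the submitters' processing notes. For versions, genome build and annotation the sources used here give no entry. RMA equalises the arrays' distributions at the level of probes and can compress differences of dim and very bright probes. The gene values used here still differed in distribution, with interquartile ranges of log2 intensity from 2.07 to 2.61. Of 24922 clusters, the array's gene table gives 1 symbol for 21425, several for 1399 and none for 2098. Clusters with 1 symbol were used, the highest mean for each gene (19752 genes), as log2 without pseudocount or filter. Precision is limited by how many arrays there were.

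The whole table went through lmFit and eBayes of limma (version 3.58.1, under R version 4.3.3), with 4 group means and 1 spread (8 residual and 7.1 prior degrees of freedom), two-sided, adjusted by Benjamini-Hochberg over 19752 genes. SE is that of the fit and n is 3 arrays a group. With 3 against 3 arrays, 0.1 is the smallest p of an exact permutation test, and single genes were not tested that way. The script was tested on simulated data.

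The members and lists were chosen with earlier results of these data known, and Rpl32l and Rps23rg1 were put with the paralogs after their names had been seen. Named genes were the called members or the 3 with the smallest p per direction, the stalk genes, Rpsa, the paralogs, the 3 brightest, dimmest, most and least variable members, Foxp3 and called genes of other lists; Rps10, Rpl5, Rpl9, Rpl27a, Rpl28, Rpl29, Rpl34, Npm1 and Fau were added after their values were seen. Residuals of same-numbered AREG and PBS arrays correlated at 0.558, 0.201 and 0.511 at day 4 and at -0.198, 0.123 and -0.003 at day 8. AREG replicate 2 of day 4 correlated more with PBS replicate 3 (0.27) than with PBS replicate 2. Within each group of 3 the residuals sum to 0, so these correlations depend on each other. They cannot settle whether arrays were paired by number, and the labels state no pairing. Alternatives covered normalisation, centring, a pseudocount of 32, a filter at the median level, the mean of a gene's clusters, eBayes options, array weights, the arrays fitted, a replicate block and leaving out each array.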

Additional observations from a re-analysis of the deposited data

How the results depend on the processing

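Across 23 alternatives (22 for the difference and the PBS groups) the direction of the core genes held better than the calls. At day 4, 53 to 54 of 54 core genes were lower with AREG and their median lay between -0.38 and -0.23; between the PBS groups 51 to 54 were lower, with medians from -0.29 to -0.20. At day 8 the core median lay between 0.002 and 0.09 with 0 members called in all alternatives.

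The number of members called lower at day 4, 1 in the values reported, was 3 with repeated quantile normalisation, 2 with the filter at the median level, 39 with array quality weights (5305 genes in all, 2520 of them lower), 3 with the replicate block (914 genes in all, against 573) and 0 without both day 4 arrays numbered 1. Leaving out single arrays gave 0 to 6: 0 without AREG replicate 1 or 3 or PBS replicate 2 of day 4, 3 without PBS replicate 3 of day 4 or AREG replicate 1 of day 8, and 6 without AREG replicate 3 of day 8. The number called higher, also 1, was 0 with a pseudocount of 32 and without both arrays numbered 1, and 0 to 1 when single arrays were left out. For the difference of the AREG effects, array quality weights gave 25 members higher and 1 lower (865 and 1367 over all genes), and all other alternatives gave 0. Between the PBS groups these weights gave 15 lower and 1 higher (873 and 776 over all genes, 8.35% of those tested). The number lower there, 2 in the values reported (227 over all genes), was 3 with repeated quantile normalisation (265 over all genes). It was also 3 with only the 2 groups compared (389 over all genes). The setting without both arrays numbered 1 gave 1 lower, and leaving out single arrays gave 0 to 3 lower and 0 to 1 higher. The weights ranged from 0.167 (AREG replicate 1 of day 4) to 7.43 (AREG replicate 2 of day 8), so that fit rests on few arrays. The cause of these changes was not tested.

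The replicate block changed no call of a member at day 8 or for the difference (over all genes it called 0 at day 8, against 1 without it). It could not be fitted between the PBS groups, since the blocks lie within a day.

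Reversed values belonged to members close to 0. Rps23rg1 at day 4 was -0.075 with array weights, -0.033 without AREG replicate 1, -0.021 without PBS replicate 3 and -0.0084 without both arrays numbered 1; leaving out single arrays gave -0.033 to 0.117. Its difference was 0.012 with weights, and -0.142 to 0.0073 without single arrays. Rps27l at day 4 was -0.0032 with quantile normalisation, -0.063 without AREG replicate 2 and -0.025 without PBS replicate 2 (up to 0.088 without single arrays). Between the PBS groups it was -0.028 with quantile normalisation, -0.013 without PBS replicate 2 of day 4 and -0.043 without PBS replicate 2 of day 8 (up to 0.11 without single arrays).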
